A study of Homo sapiens with 6 samples.

Results

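The genome around 10 genes that are known for promoter methylation in colorectal cancer was examined in Hi-C maps of DKO1 and HCT116 cells. HCT116 is a long-established line from a human colorectal carcinoma. DKO1 was derived from it by knockout of DNMT1 and DNMT3B, which encode DNA methyltransferases. The 10 genes were taken from a fixed list, with the start of each on hg19 given to 1 kb, and not from any value in the maps. Earlier results of these data were, however, known when the list was chosen. The genes are SFRP1, SFRP2, SFRP4, SFRP5, WIF1, GATA4, GATA5, TIMP3, CDKN2A and UCHL1. Each was described by the 20 kb bins whose centres lie within 200 kb of its start, which gave 201 of the 140474 bins shared by both maps, and by the domains that touch this window. Hi-C counts how often pairs of genomic positions touch in the nucleus, by joining and sequencing DNA fragments held together by cross-links. There were 3 libraries of DKO1 and 3 of HCT116, both lines grown in the same medium with serum and without treatment named in the labels. The labels of the 3 libraries of a line name 1 compartment track and 1 domain list, so the libraries were taken as pooled, and no value below has a replicate error or a p-value. DKO1 is a single derived line, so the disruption of both genes and other differences that arose when the line was made cannot be told apart. Methylation and expression of the genes were not analysed here.

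In many colorectal tumours, cytosine methylation of a CG-rich promoter is found together with silence of the gene behind it. DNMT1 copies methylation onto newly made DNA, and DNMT3B can add it to unmethylated sites. DKO1 cells are known to have lost most of their DNA methylation, and the line is widely used to ask which silent genes return to activity when methylation is lost. Several genes of the list are brakes on WNT signalling, the pathway that keeps intestinal stem cells dividing and that is constitutively active in most colorectal cancers. Chromatin is divided into compartment A, which is open and gene-rich, and compartment B, which is closed and gene-poor. The deposited score PC1, the first principal component of the contact map, is positive in A and negative in B. It was scaled to a mean of 0 and an SD of 1 within each chromosome, so that values and differences below are in SD of the chromosome.

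Among the 7 listed genes with a promoter in the RefSeq table used here, the promoters of the gene with the largest increase in PC1 (SFRP2), of the one with the largest decrease (UCHL1) and of the one with the smallest difference (TIMP3) are printed to show the CG sites at which methylation acts. They come from RefSeq on GRCh38.p14, run 5′ to 3′ from 250 bases before the start to 50 bases after it on the strand of the gene, and have each CG in capitals. SFRP2 lies at chr4:153789034-153789333 on the minus strand, UCHL1 at chr4:41256678-41256977 on the plus strand and TIMP3 at chr22:32801455-32801754 on the plus strand. UCHL1 was added to the printed promoters after its values were seen.
SFRP2: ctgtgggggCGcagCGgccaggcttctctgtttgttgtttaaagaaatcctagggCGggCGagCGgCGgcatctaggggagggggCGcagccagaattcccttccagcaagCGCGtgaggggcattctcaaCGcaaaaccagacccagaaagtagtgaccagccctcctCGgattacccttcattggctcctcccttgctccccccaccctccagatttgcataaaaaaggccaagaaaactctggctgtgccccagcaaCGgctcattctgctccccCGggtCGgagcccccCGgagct
UCHL1: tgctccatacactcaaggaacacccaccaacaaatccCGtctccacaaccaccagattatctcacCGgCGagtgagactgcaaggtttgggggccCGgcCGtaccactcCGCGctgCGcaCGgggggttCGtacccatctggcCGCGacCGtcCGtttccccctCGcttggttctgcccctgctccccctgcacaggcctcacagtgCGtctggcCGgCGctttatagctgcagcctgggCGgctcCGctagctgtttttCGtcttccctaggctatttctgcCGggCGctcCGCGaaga
TIMP3: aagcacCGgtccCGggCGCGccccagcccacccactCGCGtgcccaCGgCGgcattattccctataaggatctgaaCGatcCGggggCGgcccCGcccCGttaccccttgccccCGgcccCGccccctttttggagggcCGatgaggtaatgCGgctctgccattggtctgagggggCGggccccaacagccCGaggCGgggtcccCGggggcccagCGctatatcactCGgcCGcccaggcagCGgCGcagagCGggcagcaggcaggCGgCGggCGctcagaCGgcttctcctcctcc
The SFRP2 promoter holds 15 CG sites in 300 bases, near the median of 14 over the 35116 promoters of the RefSeq table. UCHL1 holds 25 and TIMP3 holds 31, a number reached or passed by 32.0% and 20.7% of all promoters. CG reads the same on both strands, so 1 count serves both. Of the other listed genes with a promoter in the table, SFRP4 has 23 sites, SFRP5 28 and WIF1 29. CDKN2A has 26 at its start near 21.975 Mb and 28 at its other start. A promoter of 300 bases is far shorter than a 20 kb bin, so the maps do not resolve it.

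By the sign of the window mean, the compartment of the 10 genes was the same in both lines. The window mean of PC1 was positive for 8 of 10 genes in DKO1 and for 8 of 10 in HCT116, and no window mean changed sign. Of all 130011 autosomal windows of the same width, 8.73% had a negative mean in DKO1 and a positive one in HCT116, and 4.51% had the reverse. By the window mean, SFRP4 and TIMP3 were the genes in compartment B, in both lines. The bin that holds the start was B in DKO1 and A in HCT116 at 1 gene, WIF1, against 8.92% of autosomal bins. It had the reverse at 1 gene, SFRP2, against 4.4% of bins. Over all autosomal windows 49.4% had a positive mean in DKO1 and 53.7% in HCT116. PC1 was higher in DKO1 at 7 genes and lower at 3, and the share of all windows that were higher in DKO1 was 50.3%. Of the 201 bins, 141 were higher in DKO1, against 50.6% of all autosomal bins. The median difference, DKO1 minus HCT116, was 0.20 SD over the genes and 0.00271 SD over all windows. The median size of the difference, whatever its sign, was 0.26 SD for the genes and 0.26 SD for all windows. Differences of at least 0.5 SD were found at GATA4 and SFRP2, both higher in DKO1, where 11.2% of all windows passed this size. None was that much lower in DKO1, where 12.6% of windows passed. GATA5, at 0.46 SD, lay just under the threshold.

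**Figure D1:**
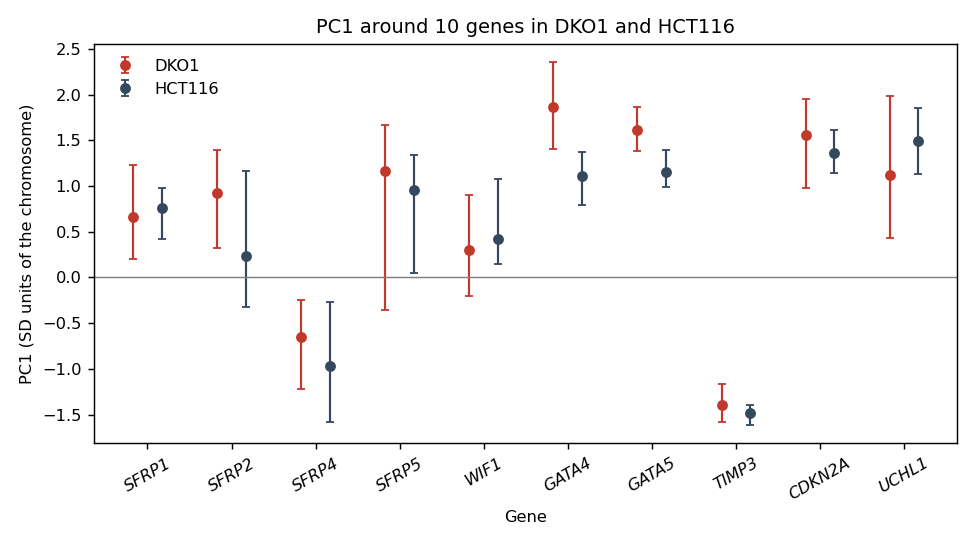
Mean PC1 over the bins within 200 kb of each gene start in DKO1 (red, left of each pair) and HCT116 (dark blue), in SD of the chromosome, with bars from the lowest to the highest bin of the window. SFRP4 and TIMP3 lie below 0 in both lines, and GATA4 and SFRP2 show the largest distance between the points, with means of 1.87 and 0.92 in DKO1 against 1.11 and 0.24 in HCT116.

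The secreted WNT inhibitors differed among themselves, as did the other 5 genes. SFRP1, SFRP2, SFRP4 and SFRP5 encode secreted frizzled-related proteins, which bind WNT ligands outside the cell, and WIF1 encodes an unrelated secreted protein that also binds WNT ligands. Of these 5 genes 3 had a higher PC1 in DKO1 and 2 a lower one, with a median difference of 0.21 SD and a range from -0.12 to 0.69 SD. Of the other 5 genes 4 were higher and 1 lower, from -0.37 to 0.76 SD, and 50.3% of all windows were higher.

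SFRP2, on chromosome 4, gave the largest difference of the group as deposited (window 154500001 to 154920000 on hg19), although with the median of the chromosome subtracted SFRP2 had 0.67 SD and SFRP4 0.76 SD. Its window mean was 0.92 SD in DKO1 and 0.24 SD in HCT116, a difference of 0.69 SD, and all 21 bins were higher in DKO1. The bin that holds the start had 0.88 SD in DKO1 and -0.29 SD in HCT116. In DKO1 the start lay in an unbroken A interval of 4400 kb, and in HCT116 it lay in a B interval of 100 kb. The HCT116 values here were close to 0, where the sign changes easily. They were -0.10 to -0.29 SD in that interval and 0.04 to 0.22 SD in the A bins just above it, before B again. In all, 7 of the 21 bins were A in DKO1 and B in HCT116, against 4.4% of all autosomal bins, and 0 had the reverse. The difference at SFRP2 was higher than in 97.3% of 8392 autosomal windows whose HCT116 mean lay within 0.1 SD of its own. Those windows had a median of -0.21 SD, and 47.4% of them had a negative mean in DKO1. The neighbouring protein-coding genes are RNF175 and DCHS2.

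SFRP1, on chromosome 8 (40960001 to 41360000), lay in A throughout, with 20 of 20 bins positive in each line. Its mean was 0.66 SD in DKO1 and 0.76 SD in HCT116. The start bin had 0.76 SD in DKO1 and 0.79 SD in HCT116. The difference of -0.10 SD was higher than in 44.1% of 10777 like windows. Under the alternatives this percentile ran from 30.1 to 73.7 and lay above the middle in 3 of 10. The A interval measured 2180 kb in DKO1 and 2200 kb in HCT116, with its border 247 kb below the start in DKO1 and 287 kb below it in HCT116. The gene lies between ZMAT4 and GOLGA7.

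SFRP4, on chromosome 7 (37760001 to 38160000), was in B, with 0 of 20 bins positive in either line. The mean was -0.65 SD in DKO1 and -0.97 SD in HCT116. PC1 was thus less negative in DKO1, in 20 of 20 bins, by 0.32 SD on average, and like windows were exceeded in 67.4% of cases (n = 5411). On the side of lower coordinates the difference was 0.47 SD, and on the other side 0.17 SD. The median of the whole of chromosome 7 was -0.18 SD in DKO1 and 0.26 SD in HCT116, and with it subtracted from each track the difference at SFRP4 was 0.76 SD. NME8 and EPDR1 lie next to the gene.

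SFRP5, on chromosome 10 (99340001 to 99740000), had a mean of 1.17 SD in DKO1 and 0.95 SD in HCT116. The difference of 0.21 SD was higher than in 80.9% of 11328 like windows. The window crosses from a plateau of A into a steep fall that ends at the compartment border, 188 kb above the start in DKO1 and 208 kb above it in HCT116. Its last bin had -0.35 SD in DKO1 and 0.05 SD in HCT116, the single bin of the window that was B in DKO1 and A in HCT116. Across the 20 bins the profiles of the lines had a Pearson r of 0.97, a description of neighbouring bins that share contacts. ZFYVE27 and GOLGA7B are its neighbours.

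WIF1, on chromosome 12 (65320001 to 65720000), had the lowest positive mean in DKO1, 0.30 SD, against 0.42 SD in HCT116. The start bin had -0.04 SD in DKO1 and 0.20 SD in HCT116. It belonged to a B interval of 100 kb in DKO1, which ended 5 kb above the start, and to an A interval of 2280 kb in HCT116. The 5 bins of the DKO1 interval were the ones that were B in DKO1 and A in HCT116, as 8.92% of autosomal bins were. All lay at or below the start, on the side of the gene body, since WIF1 is on the minus strand. The mean difference was -0.24 SD on that side and 0.00235 SD on the other. Values this close to 0 change sign easily: the 5 bins had -0.04 to -0.20 SD in DKO1. Over the whole window the difference of -0.12 SD was higher than in 56.3% of 8853 like windows, whose median was -0.19 SD. Under the alternatives this percentile ran from 28.1 to 57.0 and lay below the middle in 3 of 10. TBC1D30 and LEMD3 flank the gene.

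**Figure D2:**
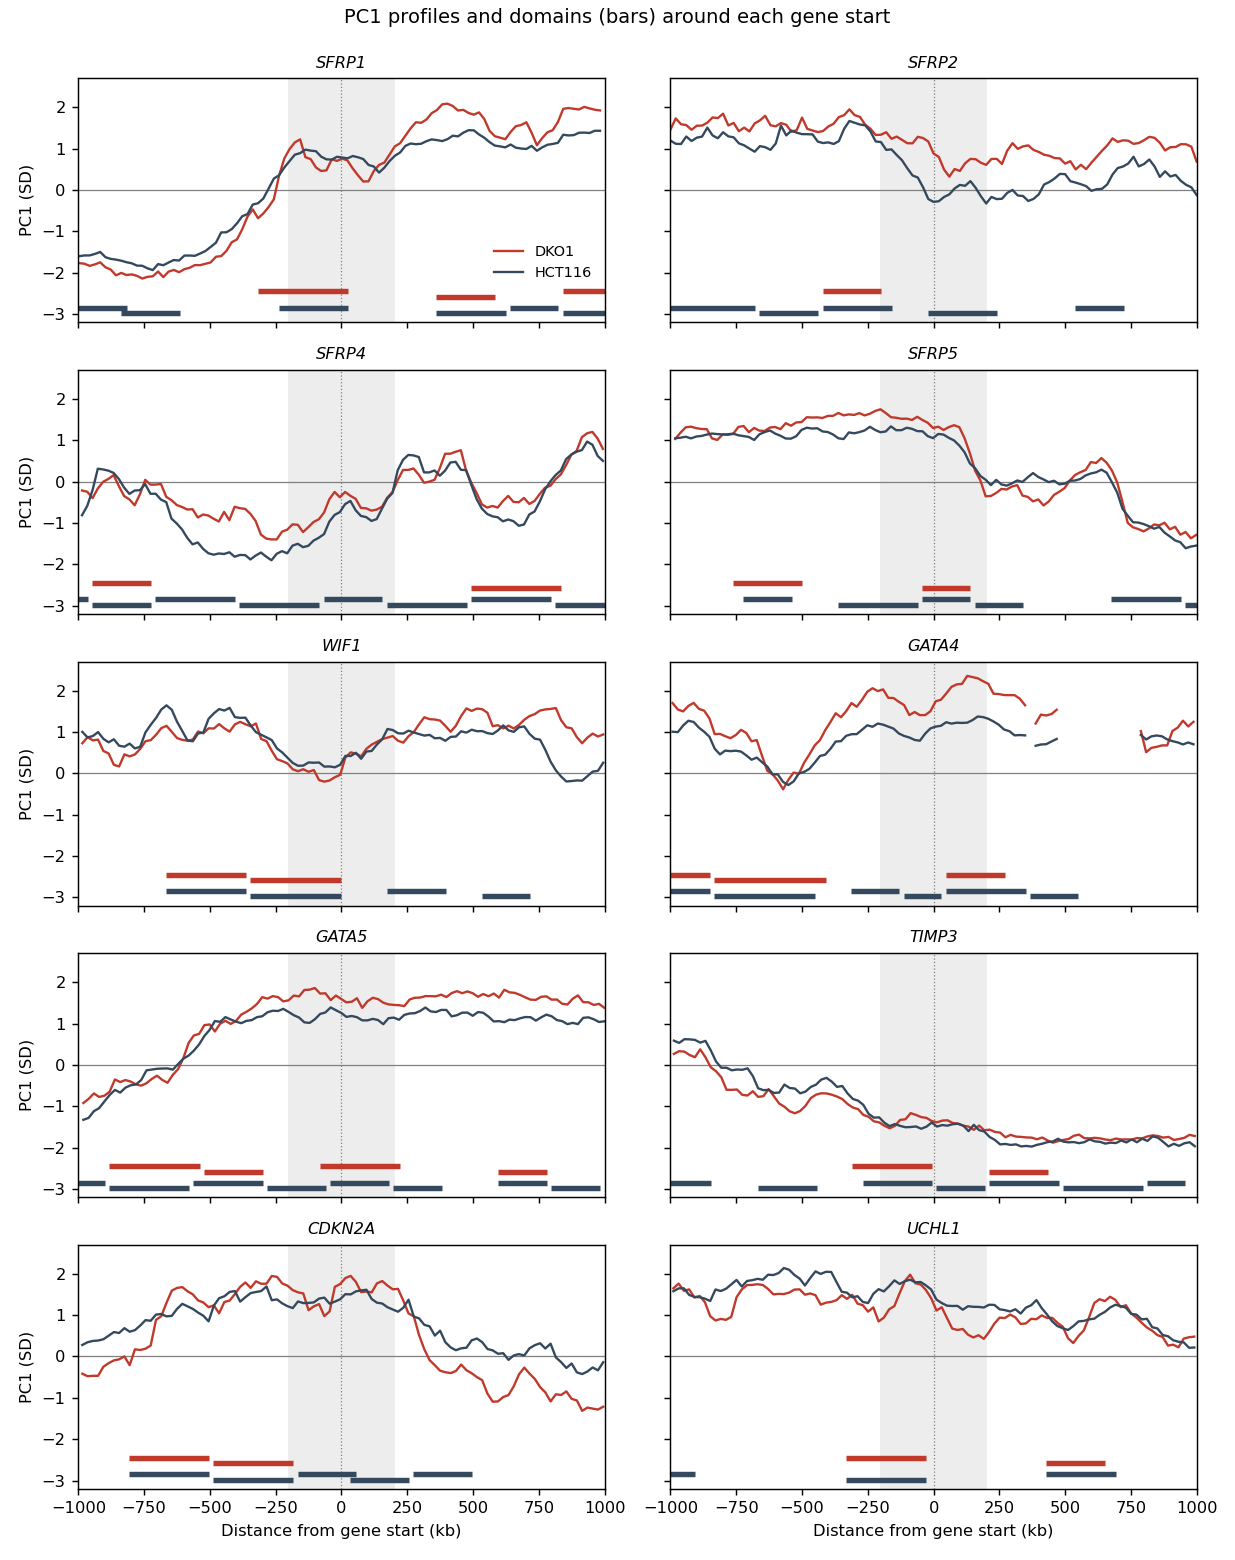
PC1 in SD (vertical axis) of DKO1 (red) and HCT116 (dark blue) by distance in kb from the start of each gene, with the window of 200 kb on either side shaded and domains as bars in the colour of their line, staggered so that abutting domains can be told apart. Breaks in the lines at GATA4 are bins without values. At CDKN2A both tracks are high within the window, and the DKO1 line runs below the HCT116 line toward both ends of the plot. Nearer the window the DKO1 line at CDKN2A runs above in places, with 1.71 SD against 1.22 SD in HCT116 at -205 kb.

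GATA4 and GATA5 encode zinc-finger transcription factors of the gut and heart, and both lay in strong A. GATA4, on chromosome 8 (11360001 to 11760000), had a mean of 1.87 SD in DKO1 and 1.11 SD in HCT116. Bins ran from 1.41 to 2.36 SD in DKO1 and from 0.79 to 1.37 SD in HCT116, and all 20 bins were higher in DKO1. The difference of 0.76 SD was higher than in 99.1% of 10817 like windows. It was the largest of the list at this window, but within 100 kb SFRP2 had 0.83 SD and GATA4 0.65 SD, and with the median over bins SFRP2 had 0.78 SD and GATA4 0.68 SD. The A interval began at 11060001 in both lines and had positive values up to 11920000, where bins without values begin, so its upper border was not measured. Of the bins around it out to 1 Mb, 64 of 80 had values. BLK and NEIL2 are the neighbouring genes.

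GATA5, on chromosome 20 (60860001 to 61260000), had a mean of 1.62 SD in DKO1 and 1.15 SD in HCT116. All 20 bins were higher in DKO1, with differences of 0.18 to 0.80 SD. The mean difference of 0.46 SD was higher than in 93.4% of 10205 like windows. The A interval around it measured 2540 kb in DKO1 and 2560 kb in HCT116, and the neighbours are RBBP8NL and SLCO4A1. Chromosome 20 as a whole had a median of -0.13 SD in DKO1 and 0.31 SD in HCT116. With this median subtracted the difference at GATA5 was 0.90 SD. Set among all autosomal windows, the DKO1 means of GATA4 and GATA5 stood above 99.2% and 97.3% of windows, and their HCT116 means above 87.4% and 89.3%.

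TIMP3 encodes a secreted inhibitor of metalloproteinases that is bound to the extracellular matrix, and the gene overlaps SYN3. It lies on chromosome 22 (33000001 to 33400000), and its difference was among the smallest of the list, 0.09 SD against -0.10 SD at SFRP1 and -0.12 SD at WIF1, an order that changed under some alternatives. The window mean was -1.39 SD in DKO1 and -1.49 SD in HCT116, deep in B in both lines. The B interval measured 3380 kb in DKO1 and 3320 kb in HCT116. The difference was higher than in 26.6% of 5843 like windows, whose median was 0.23 SD. Among windows of chromosome 22 alone it exceeded 60.9%.

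CDKN2A encodes inhibitors of the cell cycle from alternative starts, among them the protein that blocks CDK4 and CDK6, and lies between MTAP and CDKN2B on chromosome 9 (21780001 to 22180000). Its mean was 1.55 SD in DKO1 and 1.37 SD in HCT116, and the start bin had 1.75 SD in DKO1 and 1.38 SD in HCT116. The difference of 0.19 SD exceeded 69.3% of 5692 like windows. Its surroundings differed more than the window itself. Between 200 kb and 1 Mb from the start PC1 was on average 0.41 SD lower in DKO1 (a difference of -0.41 SD). The A interval that holds the start measured 1120 kb in DKO1, from 21180001 to 22300000, and 2100 kb in HCT116, from 20500001 to 22600000. It was thus shorter at both ends in DKO1, while 13 of the 20 bins of the window were higher in DKO1.

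UCHL1 encodes a deubiquitinating enzyme best known from neurons and lies between APBB2 and LIMCH1 on chromosome 4 (41060001 to 41460000). It gave the largest decrease of the list at this window, but within 100 kb UCHL1 had -0.21 SD and SFRP1 -0.25 SD. Its mean was 1.12 SD in DKO1 and 1.49 SD in HCT116, and 18 of 20 bins were lower in DKO1. The difference of -0.37 SD was higher than in 9.65% of 3203 like windows. The decrease was 0.51 SD on the side of higher coordinates (a difference of -0.51 SD) and smaller on the other (-0.23 SD). All 20 bins stayed in A in both lines, in an interval of 5000 kb in DKO1 and 5040 kb in HCT116.

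**Figure D3:**
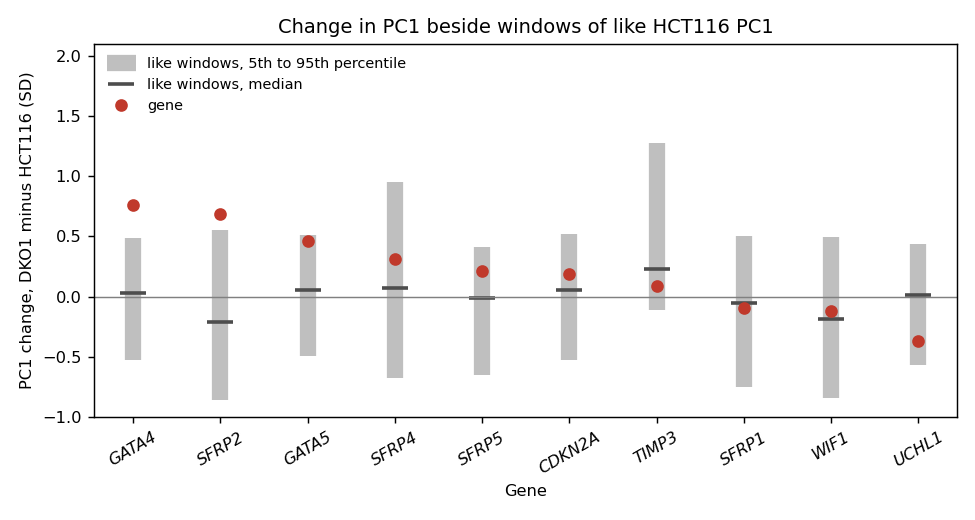
Difference in window PC1, DKO1 minus HCT116 in SD (vertical axis), for each gene (red points), with the median (dash) and the 5th to 95th percentile (grey bar) of autosomal windows with an HCT116 mean within 0.1 SD of that of the gene. GATA4 and SFRP2, at 0.76 and 0.69 SD, lie above their grey bars, and the other 8 genes lie within them.

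Against windows of like HCT116 PC1, 7 of 10 genes lay above the median, 2 above the 95th percentile and 0 below the 5th, and the median percentile of the list was 68.4. Like windows overlap one another and are no replicates, and genes on chromosomes 4 and 8, which hold 2 listed genes each, share the scaling of their chromosome. The differences at all genes but SFRP1 and CDKN2A kept their direction under every alternative run. SFRP2 had 0.48 SD after a running mean over 10 Mb was subtracted from each track. SFRP1 had 0.13 SD after the median of the chromosome was subtracted, 0.09 SD with normal scores and 0.01 SD at a half-width of 400 kb. CDKN2A had -0.18 SD with normal scores. The direction of these small differences thus depends on the scaling, and at SFRP1 also on the width of the window.

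The difference had the same sign in the window and its surroundings at 6 of 10 genes, as it did in 80.8% of all windows. At GATA4 the flanks, from 200 kb to 1 Mb, differed by 0.43 SD, and at SFRP2 by 0.54 SD. GATA5 had 0.29 SD and SFRP4 0.27 SD in the flanks, each of the same sign as in its window. Subtracting the flanks left 0.33 SD at GATA4 and 0.15 SD at SFRP2, above 92.0% and 84.7% of like windows. CDKN2A stood out here, with 0.59 SD after subtraction, above 98.9% of 5692 like windows, while 2.6% of all windows reached 0.5 SD in this direction. No gene reached 0.5 SD in the other direction, as 2.68% of windows did. The flank comparison was added after the values had been examined. The window and its flanks had opposite signs at CDKN2A, TIMP3, SFRP1 and WIF1.

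**Figure D4:**
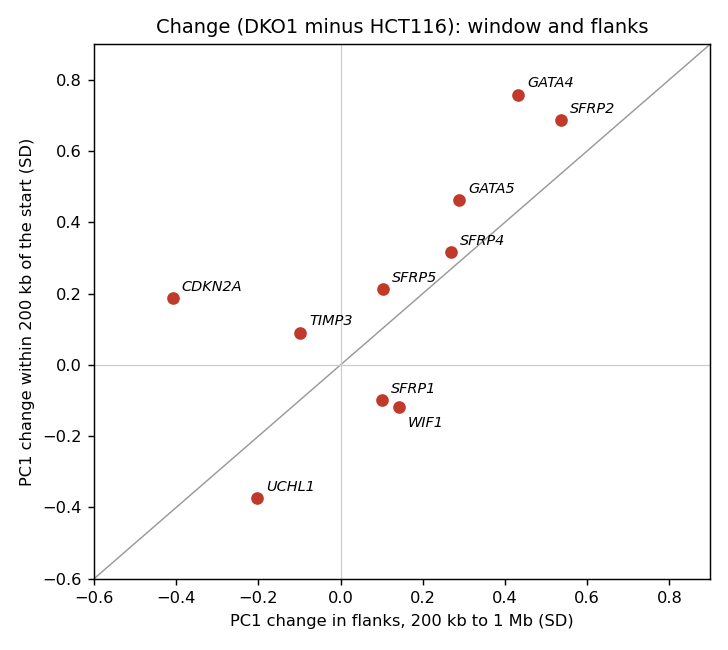
Difference in PC1, DKO1 minus HCT116 in SD, within 200 kb of each gene start (vertical axis) against that in the flanks from 200 kb to 1 Mb (horizontal axis), with the line of equal values. GATA4, SFRP2, GATA5, SFRP4 and SFRP5 lie in the upper right quadrant, and CDKN2A lies to the left, with 0.19 SD in the window and -0.41 SD in the flanks.

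Fewer domains were listed around the genes in DKO1 than in HCT116. A domain, or topologically associating domain, is a segment whose parts touch each other more often than they touch neighbouring segments. In all, 9 DKO1 domains and 23 HCT116 domains touched the 10 windows. Over all autosomal windows the mean per window was 0.43 DKO1 domains and 1.02 HCT116 domains, so both lists were denser at these genes than over all windows. The mean of like windows ran from 0.14 to 1.05 DKO1 domains and from 0.76 to 1.73 HCT116 domains, depending on the gene. SFRP4 and UCHL1 lay below their like mean in DKO1, and SFRP1 and UCHL1 did in HCT116. All other genes lay above it. Fewer touched in DKO1 at 8 genes, the same number at 2 and more at 0. Among all autosomal windows 46.6% had fewer in DKO1 and 0.925% had more. Among windows of like PC1 the share with fewer in DKO1 ran from 44.7% to 55.1%, depending on the gene. The whole DKO1 list is shorter, with 1823 domains against 4289 in HCT116, and the depth of the maps is unknown. Each gene had 0 or 1 domain in DKO1, and between 1 and 3 in HCT116. Of all windows, 36.4% had none in HCT116 and so could not have fewer in DKO1.

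**Figure D5:**
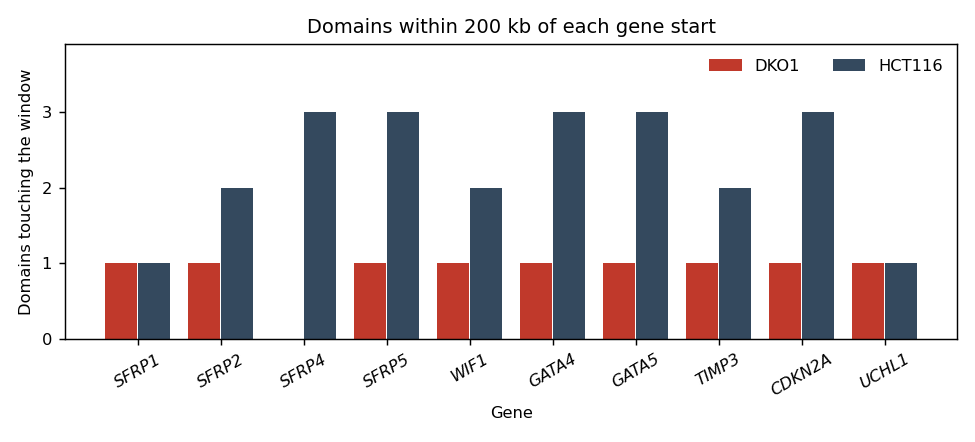
Number of domains that touch the window of 200 kb on either side of each gene start in DKO1 (red) and HCT116 (dark blue). DKO1 has 1 domain at 9 genes and 0 at SFRP4, and HCT116 has 3 at SFRP4, SFRP5, GATA4, GATA5 and CDKN2A.

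SFRP4 was the gene without any DKO1 domain, as were 68.1% of all windows and 84.2% of like windows. In HCT116 it had 3 abutting domains between 37560001 and 38440000, with the start in the middle one. At CDKN2A the domain over the start, from 21800001 to 22040000, was listed in HCT116 and not in DKO1. The domain below it, from 21480001 to 21800000, stood in both lists at the same positions. A further HCT116 domain at CDKN2A, from 22000001 to 22240000, overlapped the one over the start. SFRP2 likewise had a domain over its start in HCT116 alone, from 154680001 to 154960000. That domain began at the same position as the 100 kb B interval of HCT116.

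At other genes a domain was kept. SFRP5 lay in a domain of 200 kb, from 99480001 to 99680000, in both lines, and the domains that abut it on either side were listed in HCT116 alone. The domain over the WIF1 start, from 65160001 to 65520000, also had the same positions in both. So did the domain beside UCHL1, from 40920001 to 41240000, which ended 19 kb below the start and did not hold it. At TIMP3 the end at 33200000 was shared, and the start differed by 40 kb, the width of the grid on which domains were listed. At GATA5 the domain over the start ran from 60960001 to 61280000 in DKO1 and from 61000001 to 61240000 in HCT116, so it was 40 kb longer at each end in DKO1. Of the HCT116 domains at the genes, 6 of 23 (26.1%) had a DKO1 domain with a reciprocal overlap of at least 80%, and 35.9% of all autosomal HCT116 domains did. Of the DKO1 domains, 6 of 9 (66.7%) were matched in HCT116, where the share over all autosomes was 84%. The DKO1 domains at SFRP1, GATA4 and GATA5 had no match at this overlap.

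Domain boundaries near the genes were often shared. All 10 DKO1 boundaries in the windows were found in HCT116 within 40 kb, against 92.5% over the autosomes. In the other direction 11 of 18 HCT116 boundaries (61.1%) were found in DKO1, against 45.2%. The gene starts themselves lay close to boundaries, in a count added after the values were seen. A boundary stood within 40 kb of the start at 5 genes in DKO1 and at 7 genes in HCT116, where 10.6% and 22.1% of window centres over the autosomes had one in those lists. In windows of like PC1 these shares ran from 3.63% to 25.5% for DKO1 and from 15.5% to 34.8% for HCT116. TIMP3, WIF1, UCHL1, SFRP1 and GATA4 had such a boundary in both lists, at distances of 3, 5, 19, 33 and 38 kb, which were equal in both. Over all windows 9.15% had one in both. These shares are over all positions and not over gene starts, which are known to lie at boundaries more often than other positions. Starts were given to 1 kb and boundaries on a 40 kb grid, so distances below 40 kb have no order. Window centres lie on a 20 kb grid, so more of them fall exactly 40 kb from a boundary. The shares are thus not measured quite like the counts of genes. At SFRP2 the nearest boundary was 190 kb away in DKO1 and 30 kb away in HCT116, and at CDKN2A 175 kb in DKO1 and 25 kb in HCT116.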

How the data were processed

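Hi-C libraries of DKO1 and HCT116 cells, 3 per line, were prepared with a commercial kit (DpnII and HinfI digestion), per the labels' protocols. HiC-Pro, HOMER 4.6 and hg19 are listed, per the submitters' processing notes, with no file assigned to either tool. The deposited PC1 score, 1 value per 20 kb bin and line, was scaled by the authors or their software to a mean of 0 and an SD of 1 per chromosome, as the values show. The domain lists deposited by the authors hold positions on a 40 kb grid with no score, and their caller is not given in the sources used here. The files used here hold no counts, so depth is unknown. Like windows were all autosomal windows of the same number of bins, all present in both tracks, with an HCT116 mean within 0.1 SD of that of the gene and no overlap with a listed gene's window. The percentile is the share of them with a lower difference. All 10 genes were named whatever their values. The members, their starts and the comparisons were chosen with earlier results of these data known. Gene starts on hg19 were taken as given with the list, and neighbours came from RefSeq on GRCh38.p14 by order alone, without coordinates. No test was possible with 1 pooled track per line. The window functions were tested on a copy of the HCT116 track with added noise and planted shifts. The domain functions were run on the HCT116 list against itself and against a copy shifted by 40 kb. Python 3.11.15, numpy 2.4.6, pandas 2.3.3, scipy 1.17.1 and matplotlib 3.10.9 were used.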

Additional observations from a re-analysis of the deposited data

How the results depend on the processing

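No paired analysis was possible because each line has 1 track and 1 domain list for its 3 replicates, which also means that none could be left out. The alternatives were planned, except the tolerances of 20 and 80 kb for the distance of a start from a boundary. No gene's window mean changed sign, also with the median subtracted, but the bin that holds the start did so at 2 genes, SFRP2 and WIF1. Of all autosomal bins 4.4% changed in the direction of SFRP2 and 8.92% in that of WIF1. The number of genes higher in DKO1 by at least 0.5 SD was 2. It was 4 with the median subtracted, 1 with a running mean over 10 Mb subtracted and 1 at a half-width of 400 kb, where GATA4 had bins without values and was not run. Minimum differences of 0.25 and 1 SD gave 4 and 0 genes higher, and 1 gene lower at 0.25 SD in place of 0. The share of all windows was taken for 0.5 SD as deposited alone, so these other counts have no share to be read against. The median size of the difference over all windows, 0.26 SD, was itself near 0.25 SD. Subtracting the median moved the difference of all windows by itself, to a median of 0.12 SD, beside which SFRP4 had 0.76 SD and GATA5 0.90 SD. Of 59 differences recomputed per gene 50 moved by less than 0.2 SD, and of 99 percentiles 82 moved by less than 10 points. The percentile stayed between 97.9 and 100 for GATA4 and between 93.7 and 98.3 for SFRP2. It ran from 2.23 to 20.4 for UCHL1, from 53.4 to 93.1 for CDKN2A and from 7.01 to 60.9 for TIMP3. Between 6 and 8 genes lay above the median of like windows. Domains over the start numbered 5 in DKO1 and 9 in HCT116. Within 20 kb of a boundary lay 3 starts in DKO1 and 3 in HCT116, against 6.39% and 13.4% of all windows, and within 80 kb 6 and 10 starts, against 18.9% and 38.8%. The cause of these shifts was not tested. The number of reads behind each bin is unknown, which limits what differences of this size can show.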
